A study of Homo sapiens with 2 samples.

Results

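Mitochondrial ribosomal proteins are encoded in the nucleus, made in the cytosol and imported into mitochondria. The genes described here are those whose probe sets carry exactly 1 annotated symbol beginning with MRPL or MRPS and a digit. They were 119 probe sets for 76 genes, among 29461 probe sets for 16692 genes in all. Of the 76 genes, 75 are protein-coding and 1, MRPL20-AS1, is a long non-coding RNA named as antisense to MRPL20. By name, 48 of the coding genes belong to the MRPL series (large subunit) and 27 to the MRPS series (small subunit). Another 4 probe sets that carry such a symbol beside a second gene's were not used, and MRPL53 and MRPS24 are not analysed here.

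The signals come from 2 arrays of a human B lymphoblastoid cell line made immortal with Epstein-Barr virus, written GM06690 in the sample titles and GM06990 in the growth protocol. The labels give 1 group with replicates 1 and 2, both grown without a named treatment, so no comparison between conditions exists and no p-value is given. The series title sets the arrays beside Hi-C data, which map contacts between stretches of chromosomes. All values rest on a single cell line, and separate cultures are not stated for the replicates, so their spread may be technical.

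The mitochondrial ribosome translates the few messenger RNAs of the mitochondrial genome, which encode core subunits of the respiratory chain and of ATP synthase. It descends from a bacterial ribosome but has lost ribosomal RNA and gained proteins that bacteria lack. Its large subunit forms the peptide bond and carries the exit for the new chain, and its small subunit holds the messenger RNA and reads its codons. Inherited defects in several of its proteins cause combined oxidative phosphorylation deficiency.

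Signals are log2 values of the deposited RMA intensities, with each mean ± SD taken over both arrays (n = 2). A gene was represented by its brightest probe set and counted as above background when it exceeded, on both arrays, the 95th percentile of 90 tissue-restricted genes such as ALB and GFAP. This level was 5.82 in replicate 1 and 5.84 in replicate 2. Probe sets differ in affinity, so a brighter signal does not show a more abundant transcript. The arrays had nearly the same median intensity (33.2 in replicate 1 and 33.3 in replicate 2), which the normalization in RMA brings about by itself. Pearson r across all probe sets was 0.997. All 8 measured B-cell markers were above background, whereas 0 of 8 T-cell, 0 of 5 NK-cell, 0 of 6 myeloid and 0 of 2 erythroid markers were. Among the fibroblast and epithelial markers, COL1A1 and CDH1 were above background, each 1 of 5 measured.

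Nearly all of the mitochondrial ribosomal protein genes gave a signal well above background. The count was 75 of 76 genes, against a background of 51.1% of all 16692 genes, and 74 of the 76 were brighter than 8 on the log2 scale, against 36.3% of all genes. Their median signal was 10.70, beside 6.11 over all genes. Among the 75 above background the quartiles were 10.07 and 11.22, and the range ran from 6.85 for MRPL2 to 13.32 for MRPL3. The exception was MRPS18C, a coding gene that lay below the level on both arrays. The 75 include the non-coding MRPL20-AS1. The plot of all members on both arrays shows the distance of MRPS18C from the rest.

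**Figure D1:**
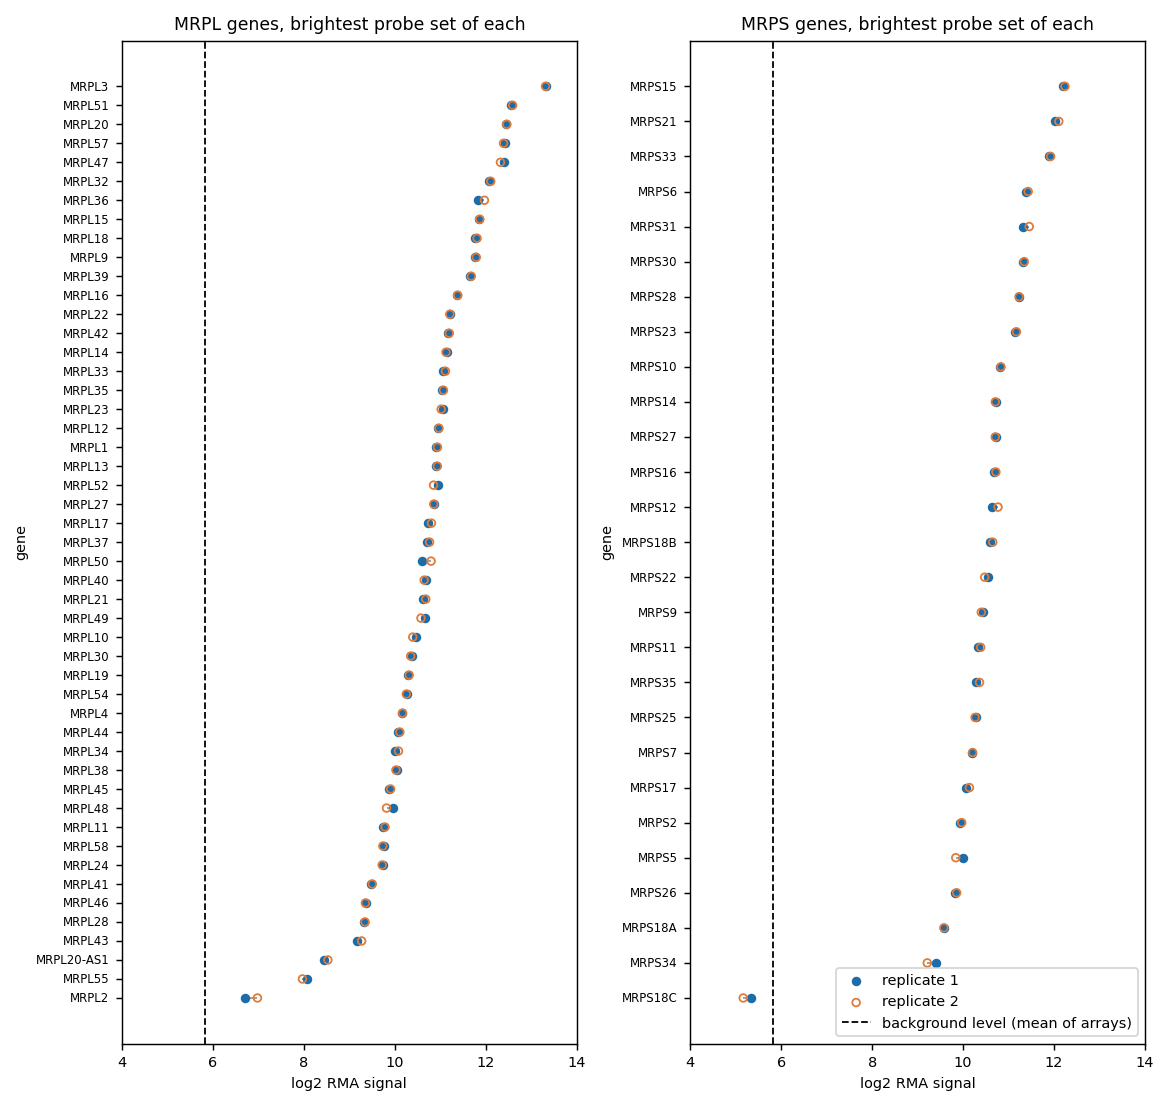
Log2 RMA signal (x axis) of each mitochondrial ribosomal protein gene (y axis, ordered by mean) on the 2 arrays, by its brightest probe set; filled points are replicate 1, open points replicate 2, and the dashed line is the mean background level. All genes except MRPS18C (5.34 and 5.16) lie to the right of the line, and MRPL2 (6.71 and 6.98) is the next dimmest.

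The large subunit proteins that have a bacterial counterpart were above background in 30 of 30 cases, with a median of 10.94. MRPL3, which reaches towards the peptidyl transferase centre, gave the highest signal of all members, 13.33 in replicate 1 and 13.31 in replicate 2. MRPL2, which binds ribosomal RNA close to the same centre, gave the lowest of this list, 6.71 in replicate 1 and 6.98 in replicate 2. MRPL1, which belongs to the stalk where deacylated transfer RNA leaves, stood at 10.92 ± 0.03, and MRPL4 at 10.16 ± 0.01. MRPL20 (12.45 ± 0.01) and MRPL47 (12.36 ± 0.05), a protein next to the polypeptide exit, were also among the 5 brightest members. MRPL55, the counterpart of a bacterial protein between the subunits, was the second dimmest of the list at 8.02 ± 0.07.

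The large subunit proteins that bacteria lack were above background in 19 of 19 measured cases, with a median of 10.61. MRPL51 (12.58 ± 0.02) and MRPL57 (12.40 ± 0.02) were the brightest of them and MRPL43 the dimmest (9.22 ± 0.07). MRPL37 stood at 10.73 ± 0.04, MRPL38 at 10.04 ± 0.02, MRPL39 at 11.67 ± 0.01 and MRPL40 at 10.66 ± 0.03. MRPS30, which carries a small subunit name but sits in the large subunit, had 11.31 in replicate 1 and 11.34 in replicate 2.

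The small subunit proteins that have a bacterial counterpart were above background in 14 of 15 measured cases, with a median of 10.70, and those that bacteria lack in 9 of 9, with a median of 10.51. In the first list MRPS2 had 9.95 ± 0.02, MRPS5 9.92 ± 0.12, MRPS6 11.41 ± 0.03 and MRPS7 10.20 ± 0.01. In the second, MRPS22 had 10.51 ± 0.06, MRPS23 11.16 ± 0.02, MRPS25 10.27 ± 0.01 and MRPS26 9.83 ± 0.03. MRPS15 was the brightest small subunit gene, with 12.19 in replicate 1 and 12.24 in replicate 2. The medians of the 4 subunit lists lay between 10.51 and 10.94, and their order was not tested.

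The MRPS18 paralogues are 3 proteins related to a single bacterial small subunit protein. MRPS18A, which is built into the large subunit, had 9.58 on both arrays, and MRPS18B, a small subunit protein, had 10.58 in replicate 1 and 10.65 in replicate 2. MRPS18C, also a small subunit protein, had 5.34 in replicate 1 and 5.16 in replicate 2. Both arrays thus placed MRPS18A and MRPS18B above the level and MRPS18C below it. The second probe set of MRPS18C was dimmer still, 3.38 in replicate 1 and 3.55 in replicate 2. The second probe sets of MRPS18A (8.82 ± 0.08) and MRPS18B (10.36 ± 0.08) were above background. Against the 75th percentile of the tissue-restricted genes (4.75 and 4.78), the brighter MRPS18C probe set was above the level. A gene below the level may still be transcribed.

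In the 4 lists by functional region, every measured gene was above background. The stalk that binds translation factors had 3 of 3 genes above the level. These were MRPL12, the flexible stalk protein (10.96 ± 0.01), MRPL10, which anchors it (10.43 ± 0.05), and MRPL11 at the stalk base (9.76 ± 0.03). The polypeptide exit had 6 of 6, including MRPL45, which ties the ribosome to the inner membrane (9.89 ± 0.03), MRPL23 (11.04 ± 0.03), MRPL22 (11.21, SD under 0.01) and MRPL24 (9.74 ± 0.02). The central protuberance had 8 of 8, including MRPL18 (11.78 ± 0.03), MRPL27 (10.86, SD under 0.01), MRPL38 and MRPL40, whose values are given above. Of the decoding site and messenger RNA path 4 of 4 measured genes were above background, among them MRPS12, which lines the decoding site (10.70 ± 0.10), and MRPS11 (10.36 ± 0.04). All 12 listed genes of combined oxidative phosphorylation deficiency were above background, from MRPS34 (9.31 ± 0.14) to MRPL3 and including MRPL44 (10.09 ± 0.03).

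MRPL20-AS1 was above background by its only probe set, with 8.44 in replicate 1 and 8.53 in replicate 2. MRPL20 itself had 12.44 and 12.46 by its brightest probe set.

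Among the members, probe sets of the same gene often gave very different signals. Of the 76 genes, 29 had at least 2 probe sets, and in 9 of these the probe sets gave different calls, a share of 31.0%, beside a background of 32.5% of all 7345 genes with at least 2. In 19 genes every probe set was above background, and MRPS18C had none. The gap between the brightest and the dimmest probe set had a median of 3.26 on the log2 scale and exceeded 2 in 19 of the 29 genes. Neither these gaps nor the count of genes with every probe set above background was taken over all genes. They are thus not shown to be particular to the members. MRPS31 (gap 0.23) and MRPS18B (gap 0.26) were the 2 genes whose probe sets lay within 0.5 of each other. Over single probe sets, 106 of 119 were above background on both arrays, against 46.4% of all probe sets.

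In MRPL20 the other probe sets read 4.35 ± 0.17 and 4.01 ± 0.03, far under its brightest. MRPL23 had a second probe set at 3.99 ± 0.08, and MRPS27, a protein with RNA-binding repeats, had one at 10.71 (SD under 0.01) and one at 3.90 ± 0.10. MRPL41 had one probe set at 9.49 ± 0.02 and others at 4.28 ± 0.22 and 4.15 ± 0.16. In these 4 genes the call thus rests on 1 probe set. MRPL55 likewise had 1 of its probe sets above background and another at 4.76 ± 0.12.

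MRPL47 and MRPL52 each had a second probe set that crossed the level on 1 array. That of MRPL47 had 5.31 in replicate 1 and 5.98 in replicate 2, and that of MRPL52 had 5.85 and 5.75. MRPS12 and MRPS15 had 3 of 4 probe sets above background, and their dimmest stood at 4.06 ± 0.03 and 5.69 ± 0.08. The plot of probe sets by gene shows that MRPL20, which had the brightest single probe set of these 29 genes, also had the widest gap, 8.44.

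**Figure D2:**
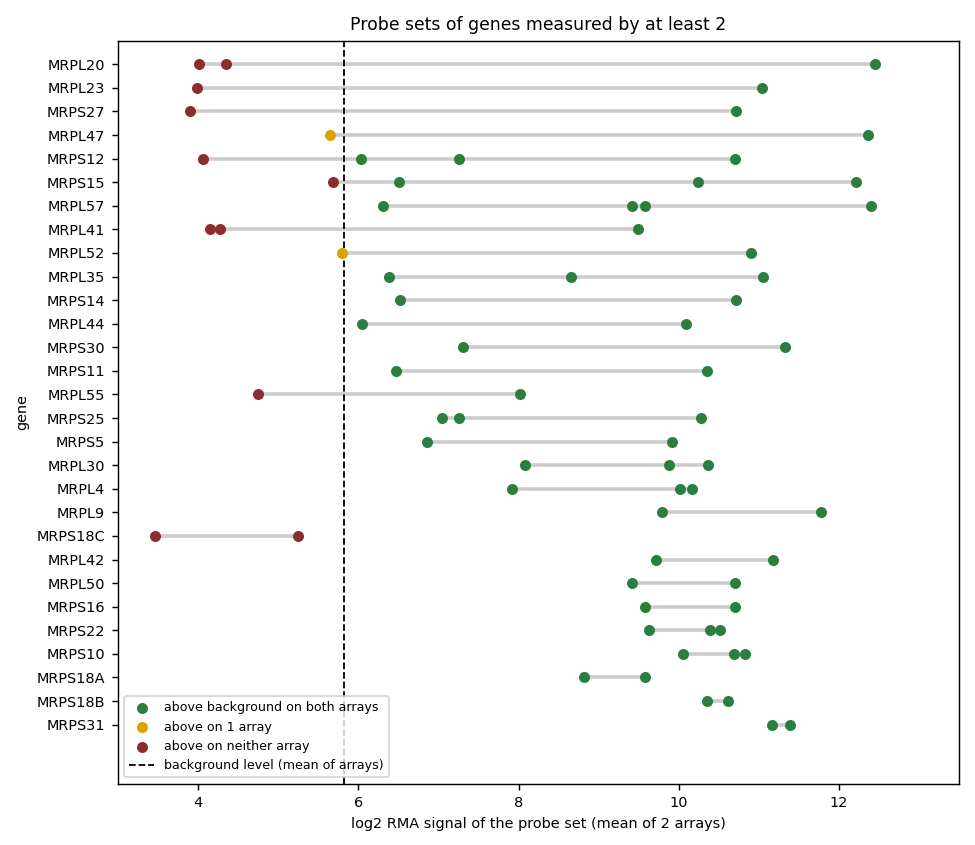
Mean log2 RMA signal (x axis, 2 arrays) of every probe set of the 29 genes (y axis, ordered by the gap) measured by at least 2; colours give the number of arrays on which the probe set was above background, grey bars join the probe sets of a gene, and the dashed line is the mean background level. In 9 genes the bar crosses from probe sets above background to others that were not, and MRPS18C lies wholly below it.

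The replicates gave nearly the same value for each member. Among the 75 genes above background the median SD of the 2 arrays was 0.03, beside 0.05 over all 8531 genes above background. The members are brighter than most genes, and over the 1457 genes above background whose signal lay within the members' quartiles the median SD was 0.04. The arrays differed by less than 0.1 on the log2 scale for 66 of the 75 members (88.0%), against 64.5% of all genes above background and 79.5% of those in the same quartiles. None of the 75 differed by more than 0.58, against a background of 0.649% of the 8786 genes above the level on at least 1 array. The largest difference over the 1457 genes within the members' quartiles was 0.33, so none of those passed 0.58 either.

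The 6 members with the largest differences are given as replicate 2 minus replicate 1. They were MRPL2 (0.27), MRPS34 (-0.20), MRPL50 (0.20), MRPS5 (-0.16), MRPL36 (0.14) and MRPS12 (0.14). MRPL2 is also the dimmest member above background, where differences between the arrays are wider for all genes. For MRPL50 the second probe set had 9.41 in replicate 1 and 9.42 in replicate 2, so the difference was not seen by it. The second probe set of MRPS5 had 6.97 in replicate 1 and 6.75 in replicate 2, the same direction as its brightest. In MRPS12 the second brightest had 7.23 in replicate 1 and 7.30 in replicate 2, also the same direction. MRPL2, MRPS34 and MRPL36 had 1 probe set each. Set against the 5th to 95th percentiles of all genes in the same interval of 1 log2 unit, 70 of the 75 members lay inside and MRPL36, MRPL50, MRPS12, MRPS31 and MRPS34 outside. By definition about 5% of all genes lie beyond each end of this band, so some members outside it do not stand out.

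Most members were slightly higher in replicate 2, in 48 of 75 cases (64.0%), against a background of 42.8% of all genes above background and 45.0% of those in the members' quartiles. The median difference was 0.02, beside -0.02 over all genes above background, and whether this exceeds the error between arrays was not tested. In 21 members with at least 2 probe sets above background, the 2 brightest pointed the same way in 11. The same count was not made over all genes. Without probe sets ending in _x_at or _s_at, 19 of 38 members were higher in replicate 2, against 42.0% of all genes above background under that setting.

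**Figure D3:**
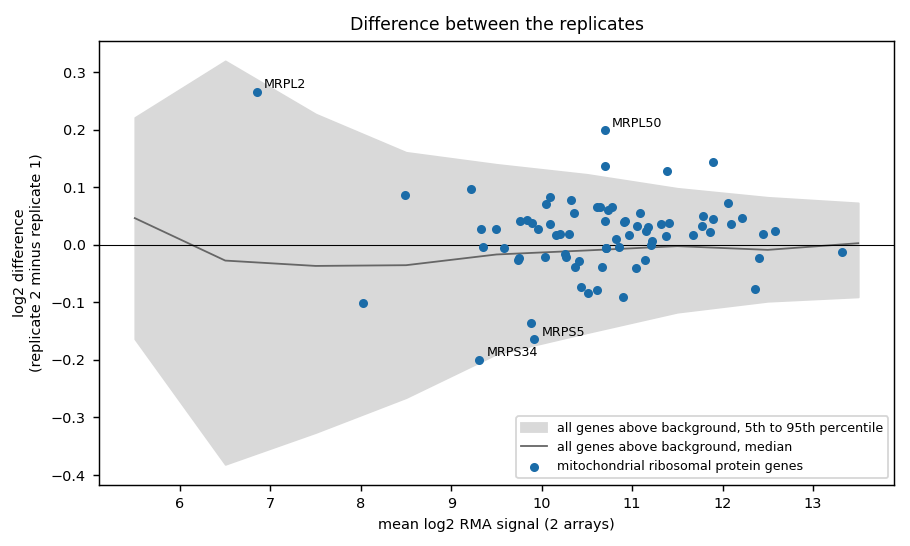
Log2 difference between the arrays (y axis, replicate 2 minus replicate 1) against mean log2 RMA signal (x axis) for the 75 members above background, MRPL20-AS1 included. The grey band spans the 5th to 95th percentile and the grey line the median of all genes above background, in intervals of 1 log2 unit. The points gather near 0, and MRPL2 (0.27), MRPL50 (0.20), MRPS34 (-0.20) and MRPS5 (-0.16) lie farthest out.

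By the brightest probe set, every measured gene in the other lists of the mitochondrial translation pathway was also above background, where 51.1% of all genes were. The mitoribosomal proteins with other symbols were above in 4 of 4 measured cases, namely the GTP-binding small subunit protein DAP3 (11.77 ± 0.03), CHCHD1 (11.07 ± 0.04), PTCD3 (10.37 ± 0.03) and GADD45GIP1 (8.93 ± 0.07). The translation factors were above in 14 of 14 measured cases (16 listed), including the initiation factors MTIF2 (10.95 ± 0.02) and MTIF3 (10.12 ± 0.12) and the elongation factor TUFM (11.29 ± 0.04). The assembly factors were above in 21 of 21 measured cases (24 listed), including ERAL1, which chaperones the small ribosomal RNA (8.01 in replicate 1, with a difference of -0.01 in replicate 2), the RNA methyltransferase NSUN4 (8.51 ± 0.03) and MTERF3 (10.93 ± 0.05). The dimmest assembly factor was the RNA methyltransferase MRM1, with 6.16 in replicate 1 and 6.53 in replicate 2.

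Mitochondrial transcription and genome maintenance had 9 of 9 genes above background, including the RNA polymerase POLRMT (7.99 ± 0.04) and its partners TFAM (11.22 ± 0.02) and TFB2M (10.87 ± 0.07). The mitochondrial aminoacyl-tRNA synthetases, which charge transfer RNA, had 12 of 12 measured genes above it (17 listed), including CARS2 (9.51 ± 0.15), EARS2 (8.23 ± 0.18) and FARS2 (9.90 ± 0.07). For scale, the 19 measured oxidative phosphorylation subunits had a median of 12.44 and the 25 measured cytosolic ribosomal proteins one of 14.47, each with every measured member above background, beside 10.70 for the mitochondrial ribosomal proteins. Probes of cytosolic ribosomal protein genes may be shared with near-identical copies, and the difference between the lists was not tested.

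Regulators of nuclear genes for mitochondria were above background in 8 of 9 cases. These included NRF1, a transcription factor of many such genes (7.71 ± 0.03), and GABPA (7.83 ± 0.01) and GABPB1 (8.89 ± 0.03), the subunits of an ETS-family factor. YY1 had 12.55 ± 0.03 and MYC 11.65 ± 0.07. The coactivator PPARGC1A was the exception, with 3.98 in replicate 1 and 3.94 in replicate 2, whereas its relatives PPARGC1B (7.51 ± 0.10) and PPRC1 (8.69 ± 0.18) were above the level.

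The promoters of the members were compared with all promoters for 7 short motifs. RefSeq windows on GRCh38.p14, from 250 bases before to 50 bases after the annotated start, were matched for 67 of the 75 coding members, with the first window listed for each gene. MRPL2, MRPL10, MRPL13, MRPL15, MRPL21, MRPL23, MRPL35 and MRPS28 were not matched. Each motif was searched on both strands, and no match to one motif overlapped a match to another in these windows.

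The ETS motif CCGGAAG was found in 28 of the 67 member windows (41.8%), against 22.4% of windows of 7076 coding genes above background and 14.2% of all 15842 coding windows. The YY1 motif AAGATGGC was found in 19 of 67 (28.4%), against 6.66% and 3.91%. At least 1 of these 2 motifs was present in 39 of 67 windows (58.2%), against 27.4% and 17.2%. Both were present in 8 of 67, against 119 of 7076 and 143 of 15842. By subunit, 17 of 43 large subunit windows and 11 of 24 small subunit windows held the ETS motif, and 14 of 43 and 5 of 24 the YY1 motif.

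For the other motifs the member share differed from both other shares by fewer percentage points than for ETS and YY1. The NRF1 motif GCGCATGC was found in 6 of 67 member windows (8.96%), against 6.11% of windows of genes above background and 4.26% of all. The E-box CACGTG was also found in 6 (8.96%), against 780 of 7076 windows of genes above background and 8.88% of all, and the NF-Y motif CCAAT in 20 (29.9%), against 38.3% and 36.4%. The Sp1 motif GGGCGG was found in 40 (59.7%), against 71.0% and 58.5%. The TATA box TATAAA was found in 2 (2.99%), against 5.34% and 9.63%. These 2 matches lay far from the annotated start, at -248 in MRPL54 and, on the other strand, at -165 in MRPS15. The median GC content of the member windows was 60.3%, against 65.0% for genes above background and 62.7% for all. Short motifs occur by their letters alone, and a match does not show that a factor binds there.

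The ETS and YY1 matches lay at different places. Counted in bases from the annotated start to the leftmost base of the match, the 37 ETS matches had a median position of -22 and lay on either strand, 17 of them on the strand of the gene. In windows of genes above background the median was -44. Of the 20 YY1 matches in member windows, 14 lay at or after the start, and all 14 of these read on the strand of the gene. Among genes above background 64.0% of YY1 matches, 313 in number, lay at or after the start, and 281 of these read on the strand of the gene. With only the bases before the start searched, the YY1 motif was in 7.46% of member windows, against 2.11% of windows of genes above background and 1.39% of all. The ETS motif was then in 32.8% of member windows, against 18.6% and 11.8%.

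**Figure D4:**
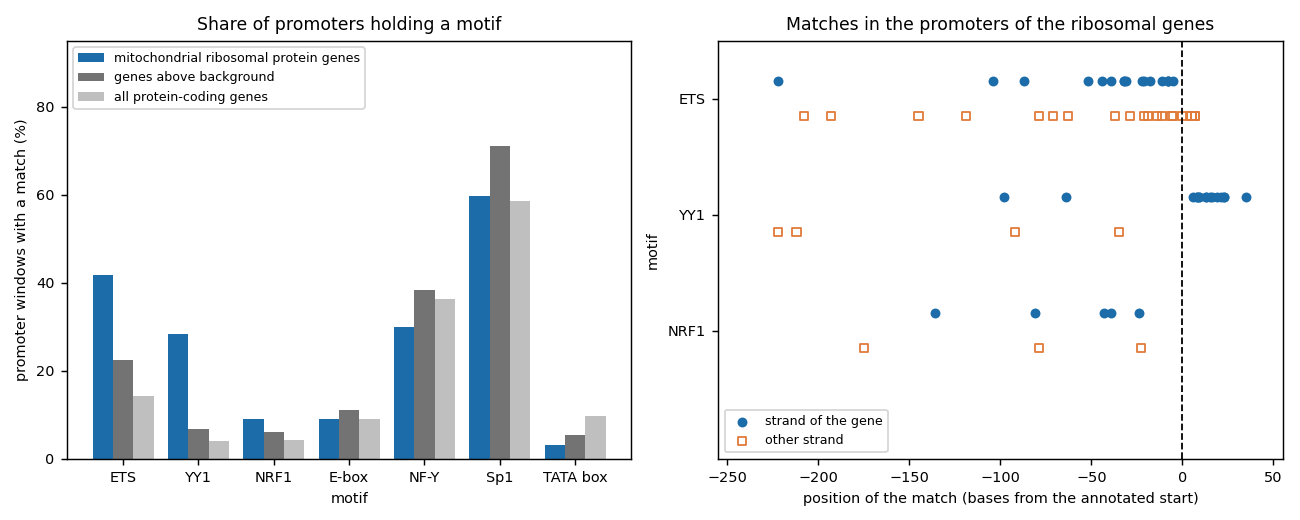
Left, percentage of promoter windows (y axis) that hold each motif (x axis) for mitochondrial ribosomal protein genes, genes above background and all protein-coding genes; right, position of each ETS, YY1 and NRF1 match in the member windows (x axis, bases from the annotated start, dashed line) on the strand of the gene (filled) or the other strand (open). The bars of the mitochondrial ribosomal protein genes are higher than both others for ETS (41.8%) and YY1 (28.4%), and most YY1 matches on the strand of the gene lie just after the start.

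YY1 matches after the start, which make up 14 of the 20 in member windows, are shown for 3 large subunit and 3 small subunit names, to place the motif beside its neighbouring bases. They are the first by symbol, except that MRPL22 is left out because a stretch of 30 bases around its match, the farthest from the start at position 35, runs past the end of the window. MRPS18A in the second group is a small subunit name of a large subunit protein. Each stretch is 30 bases of GRCh38.p14 from RefSeq, read on the strand of the gene, with the motif in capitals. The match begins 15 bases after the annotated start in MRPL20, 6 in MRPL38, 8 in MRPL42, 9 in MRPS10, 9 in MRPS18A and 23 in MRPS18B.
MRPL20, chr1:1407260-1407289, minus strand: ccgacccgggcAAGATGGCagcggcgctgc
MRPL38, chr17:75904860-75904889, minus strand: aggccggagggAAGATGGCggcgccctggt
MRPL42, chr12:93467511-93467540, plus strand: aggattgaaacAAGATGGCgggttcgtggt
MRPS10, chr6:42217834-42217863, minus strand: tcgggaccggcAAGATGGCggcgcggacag
MRPS18A, chr6:43687764-43687793, minus strand: gtaggtttttgAAGATGGCggccctcaagg
MRPS18B, chr6:30617852-30617881, plus strand: gggcgtacgtcAAGATGGCggcgtctgtat
The motif contains the letters ATG, which also spell a start codon, and whether each is the annotated start codon of its gene was not looked up.

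Windows that held both the NRF1 and the ETS motif were found for MRPL52 and for MRPS18C, the member that was not above background. They are printed from 250 bases before to 10 bases after the annotated start, with matches to the NRF1, ETS and YY1 motifs on either strand in capitals.
MRPL52, chr14:22829637-22829896, plus strand: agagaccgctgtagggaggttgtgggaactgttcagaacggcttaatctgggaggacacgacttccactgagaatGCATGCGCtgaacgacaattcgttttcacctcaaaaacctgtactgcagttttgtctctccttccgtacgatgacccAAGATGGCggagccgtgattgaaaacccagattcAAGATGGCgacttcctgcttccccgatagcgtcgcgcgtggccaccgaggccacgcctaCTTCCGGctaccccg
MRPS18C, chr4:83455808-83456067, plus strand: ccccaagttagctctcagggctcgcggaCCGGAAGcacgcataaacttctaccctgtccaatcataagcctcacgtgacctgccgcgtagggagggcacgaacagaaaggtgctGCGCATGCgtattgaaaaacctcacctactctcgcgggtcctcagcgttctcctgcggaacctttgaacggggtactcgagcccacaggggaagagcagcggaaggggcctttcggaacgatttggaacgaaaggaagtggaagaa
In MRPL52 the ETS match spans the start, from position -5, and the NRF1 match lies at -175. In MRPS18C the ETS match lies at -222 and the NRF1 match at -136. Its signal was 5.25 ± 0.12, and a link between motifs and signal was not tested.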

How the data were processed

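The deposited values are RMA probe set intensities on a linear scale, 1 per probe set and array (lowest 6.29, highest 33093); per the submitters' processing notes the authors used RMA, with no version stated in the notes. Their log2 was taken. No CEL files were used, so background correction was not varied. Of 36289 probe sets, 29493 had 1 symbol in the platform annotation, 1407 several and 5389 none; 29461 were matched by Entrez ID to RefSeq names (GRCh38.p14), and the other 32 were left out. The precision is limited by the 2 arrays. A gene took its probe set with the highest mean. Genes were named by list order, by calls, by disagreement between probe sets, by the 6 largest differences and by the 5 highest and lowest signals. YY1, MYC, GADD45GIP1, MRM1, PPARGC1B, PPRC1 and further genes given as exceptions or examples were picked with their values in view. The members and lists were chosen with earlier results of these data known. Protein sequences were not used here. Calls, differences and normalizations were tested on simulated data (Python 3.11.15, numpy 2.4.6, pandas 2.3.3, statsmodels 0.14.6).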

Additional observations from a re-analysis of the deposited data

How the results depend on the processing

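Of 102 repeats under other settings, 84 counted as unchanged. The limit was 1.5 times for a count and the members' median SD (0.03) for a median. For a motif share it was the confidence interval of the main share. Counts that were 0 throughout also counted as unchanged. The median difference between the replicates is smaller than that SD, so its fall to 0.0039 without _x_at and _s_at probe sets counted as unchanged. The member count was 75 of 76 after a second quantile normalization, against 51.1% of all genes, and with the mean over all probe sets, against 47.8%. It was also 75 on either array alone, against 51.6% of all genes without replicate 1 and 52.1% without replicate 2. With the 75th percentile as the level it was 76, against 61% of all genes. At the 99th percentile it was 44 genes, against 11.9% of all genes, and 46 probe sets, because KRT10 and MBP, the brightest of the level genes, moved the level to 10.40 and 10.47; without them, a setting chosen after seeing the data, it was 75 genes, against 48.0% of all, and 101 probe sets. At the 99th percentile with them, the other symbols, translation factors, assembly factors, transcription and maintenance genes, synthetases and regulators had 2, 6, 6, 3, 1 and 2 above. With only probe sets that end in neither _x_at nor _s_at, which measure fewer genes, 38 of 40 members (not MRPL20 or MRPL23), against 45.0% of all genes, and 40 of 43 probe sets were above, as were 2 of 2 other symbols, 8 of 9 translation factors, 5 of 6 regulators and 12 of 15 cytosolic ribosomal proteins. In that setting 16 of 18 assembly factors and 13 of 14 oxidative phosphorylation subunits were above. With the mean over all probe sets, 3 of 4 other symbols and 20 of 21 assembly factors were above. So were 8 of 9 transcription and maintenance genes and 11 of 12 synthetases, while the remaining lists kept their counts. The median signal was 10.31 without probe sets ending in _x_at or _s_at and 10.12 with the mean over probe sets. It was 10.67 to 10.71 on the arrays taken alone. Members higher in replicate 2 numbered 53 of 75 after quantile normalization, beside 49.6% of all genes above background. The share of windows with the YY1 motif was 7.46% before the start only, against 2.11% for genes above background, as 14 of the 20 member matches lie at or after the start. No paired analysis was possible because the labels give 1 group.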

Other observations

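Several mitochondrial ribosomal protein genes start head to head with another gene, as do many other coding genes above background. In the RefSeq windows, 21 of 67 members (31.3%) had a gene on the other strand whose start lay upstream within 1000 bases, against 26.1% of coding genes above background and 18.3% of all; within 500 bases it was 17 of 67 (25.4%), against 23.9% and 16.5%. This comparison was chosen after seeing the data. The member share lay near that of genes above background, most closely within 500 bases, and the difference was not tested. MRPL46 and MRPS11, a large and a small subunit gene, start 320 bases apart, with signals of 9.36 (SD under 0.01) and 10.36 ± 0.04. MRPS12 lies 181 bases from SARS2, which encodes the mitochondrial seryl-tRNA synthetase (6.81 ± 0.19), and MRPS27 has PTCD2 (9.02 ± 0.01) as its partner. Some other partners belong to different pathways. Examples are FAU (13.88, SD under 0.01), a cytosolic ribosomal protein gene 49 bases from MRPL49, and PSMA2 (12.95 ± 0.04), a proteasome subunit gene 202 bases from MRPL32. Of the partners of the 21 members, 17 are protein-coding, and the rest are long non-coding RNAs that were not measured.

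Of the 21 partners 13 were measured, and 12 of these were above background, beside 77.6% of 1001 such partners of genes above background. The exception was PIERCE1, 813 bases from MRPS2, with 4.38 in replicate 1 and 4.36 in replicate 2. The 13 include MRPL46 and MRPS11, which are each other's partner, so the 21 partners form 20 pairs. Both are members already counted as above background. MRPS18C, the member that was not above background, starts 175 bases from the DNA helicase gene HELQ, which was above it, with 7.79 in replicate 1 and 7.67 in replicate 2.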
